A study of Mus musculus with 10 samples.

Results

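The 2-colour arrays examined here measured RNA of epididymal white adipose tissue (eWAT) of 10 mice, and the genes described are the ligands, receptors and follistatin-type binding proteins of the transforming growth factor beta (TGF-β) family. Members were all non-control probes whose gene symbol on the array belongs to the *Tgfb*, *Tgfbr*, *Bmp*, *Bmpr*, *Gdf*, *Inh*, *Acvr*, *Fst* or *Fstl* series, which gave 67 of 55681 probes and 47 of 34797 gene symbols. The name rule also took in a protease, *Bmp1*, and a kinase, *Bmp2k*, which are not ligands or receptors. All mice belonged to 1 group. They were wild-type males, called C57BL/6JOlaHsd in the treatment notes and C57BL/6J in the strain field, 9 weeks old at the start, acclimatized for 3 weeks on a low fat diet and then fed a high fat diet (HFD) for 12 weeks at 29°C. Desferrioxamine (DFO), a compound that binds iron, was injected once a day on 5 days at 100 mg/kg body weight, and tissue was taken on day 6 after 2 h without food. A control group was named in the same notes, but its mice were not analysed here except through a pool.

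TGF-β family ligands are made as precursors, cut by furin-like proteases and released as dimers. A dimer binds type II and type I receptor kinases on the cell surface, and the type I receptor then phosphorylates SMAD proteins, with 1 branch used by TGF-βs and activins and another by bone morphogenetic proteins (BMPs). In white fat, BMP4 and BMP2 are known for the commitment of precursor cells to the adipocyte lineage, TGF-β1 and activin A for holding back adipocyte differentiation and for fibrosis, and the activin receptor ALK7, the product of *Acvr1c*, for restraining lipolysis in mature adipocytes. Macrophages are a known source of TGF-β1 and of growth differentiation factor 15 (GDF15).

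Each mouse was labelled with Cy5 and hybridized against 1 Cy3 pool that, by the labels, holds RNA of all mice, the controls included. The log2 ratio used below is log2 of Cy5 over Cy3 after background correction and normalization. A value of 1 is therefore a signal 2 times that of the pool. Because the pool is no control group and the dyes were not swapped, no ratio was tested against 0, and what these arrays measure is how far the 10 mice differed from each other. For this, the variance of log2 Cy5 over the 10 mice was compared with that of log2 Cy3 over the same arrays with a Pitman-Morgan test of paired variances, adjusted by Benjamini-Hochberg over all probes tested. The pool channel, which was the same RNA on every array, was taken as the measure of technical spread. Cy5 and Cy3 values were both rebuilt from the normalized ratio and mean log signal, so the Cy3 SD is not free of the mouse channel.

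Mice differed strongly in the RNA of cell type markers. The first principal component of the expressed probes held 75.1% of the variance and set mice 4, 5, 6 and 7 apart from the other 6, and the second held 8.80% and set mouse 2 apart from the other 9. All 9 adipocyte markers were expressed, which bears out fat tissue but does not test the depot, and 7 of 9 varied more in Cy5 than in Cy3. *Fabp4* was not called, with SDs of 0.58 in log2 Cy5 and 0.56 in log2 Cy3. Its log2 ratio still ran from -2.08 to 0.80. *Lpl* was not called either (adjusted p = 0.758). Its log2 ratio ran only from -0.20 to 0.42, with mice 4 to 7 between -0.20 and 0.014. The mean log2 ratio of the 9 markers lay between -2.15 and -1.20 in mice 4 to 7 and between -0.11 and 0.62 in the other mice. Their summed Cy5 signals ran from 192200 to 639000. All 9 macrophage markers on the array varied more in Cy5, with means between 0.88 and 1.18 in mice 4 to 7 and between -1.55 and -0.17 in the others, and summed signals from 48520 to 270500. Mesothelial (7 of 7), mural (4 of 4) and endothelial (5 of 6) markers also varied more in Cy5, and the means of these 3 lists were lowest in mice 4 to 7. Of fibroblast and progenitor markers 5 of 7 passed, of lymphocyte, blood and sperm and epididymis markers 3 of 3 each, and of brown fat markers *Cidea*, the 1 expressed. Mice 4 to 7 were also lowest in the blood mean (-2.06 to -1.34), the lymphocyte mean (-0.53 to -0.34) and *Cidea* (-1.85 to -1.05). In the fibroblast and progenitor mean and the sperm and epididymis mean they overlapped the other mice. *Ucp1* was above background on 1 array and *Lcn5* on none. In whole tissue, fewer cells of a type and less RNA per cell cannot be told apart. Nothing in the labels separates mice 4 to 7 from the others, they are no group of the study, and no test was made between them and the rest. The 2 arrays of a slide held mice 3 and 4, and those of another held mice 7 and 8, so values of these pairs are also a comparison within a slide.

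The family was well represented in this tissue. Of the 67 member probes, 49 (73.1%) were well above background in Cy5 on at least 5 of 10 arrays, against 49.9% of all probes, and they covered 36 of the 47 genes. The 11 genes with no such probe were *Bmp5*, *Bmp8b*, *Bmp10*, *Bmp15*, *Gdf2*, *Gdf6*, *Gdf11*, *Inha*, *Inhbc*, *Fstl4* and *Fstl5*, of which *Bmp10* was above background on 2 arrays, *Gdf11* and *Inha* on 1 each and the other 8 on none. *Gdf2*, *Bmp10*, *Inhbc* and *Bmp15* are ligands known from liver, heart and oocytes. *Gdf7* was expressed by this rule, but its pool signal was above background on 1 array, so its variances were not compared.

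Of 45 member probes tested, 34 (75.6%) varied more between mice than the pool varied between arrays, against a background of 59.8% of all probes tested, and no member probe varied more in the pool. By gene, 29 of 35 had such a probe, and for 27 of 35 it was the brightest probe, which is the one described below. The median SD of log2 Cy5 was 0.32 over member probes and 0.20 over all probes, while the median SD of log2 Cy3 was 0.076 and 0.081. For 15 member probes (30.6%) the 4 lowest values were those of mice 4, 5, 6 and 7, against 21.3% of all expressed probes, and for 8 (16.3%) the 4 highest were, against 17.9%, so the second share is close to the background. Without mice 4 to 7, 17 of 45 member probes still varied more in Cy5, against 14.2% of all probes. Without normalization between arrays 17 of 45 passed, against 18.7% of all probes, and 12 of the 27 genes lost their call: *Bmpr1a* (adjusted p = 0.059), *Tgfb3* (0.069), *Inhbb* (0.097), *Bmp2* (0.10), *Gdf1* (0.124), *Fstl1* (0.152), *Bmpr2* (0.154), *Tgfb2* (0.154), *Tgfbr3* (0.176), *Fst* (0.209), *Acvr1b* (0.218) and *Acvr2b* (0.354).

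**Figure D1:**
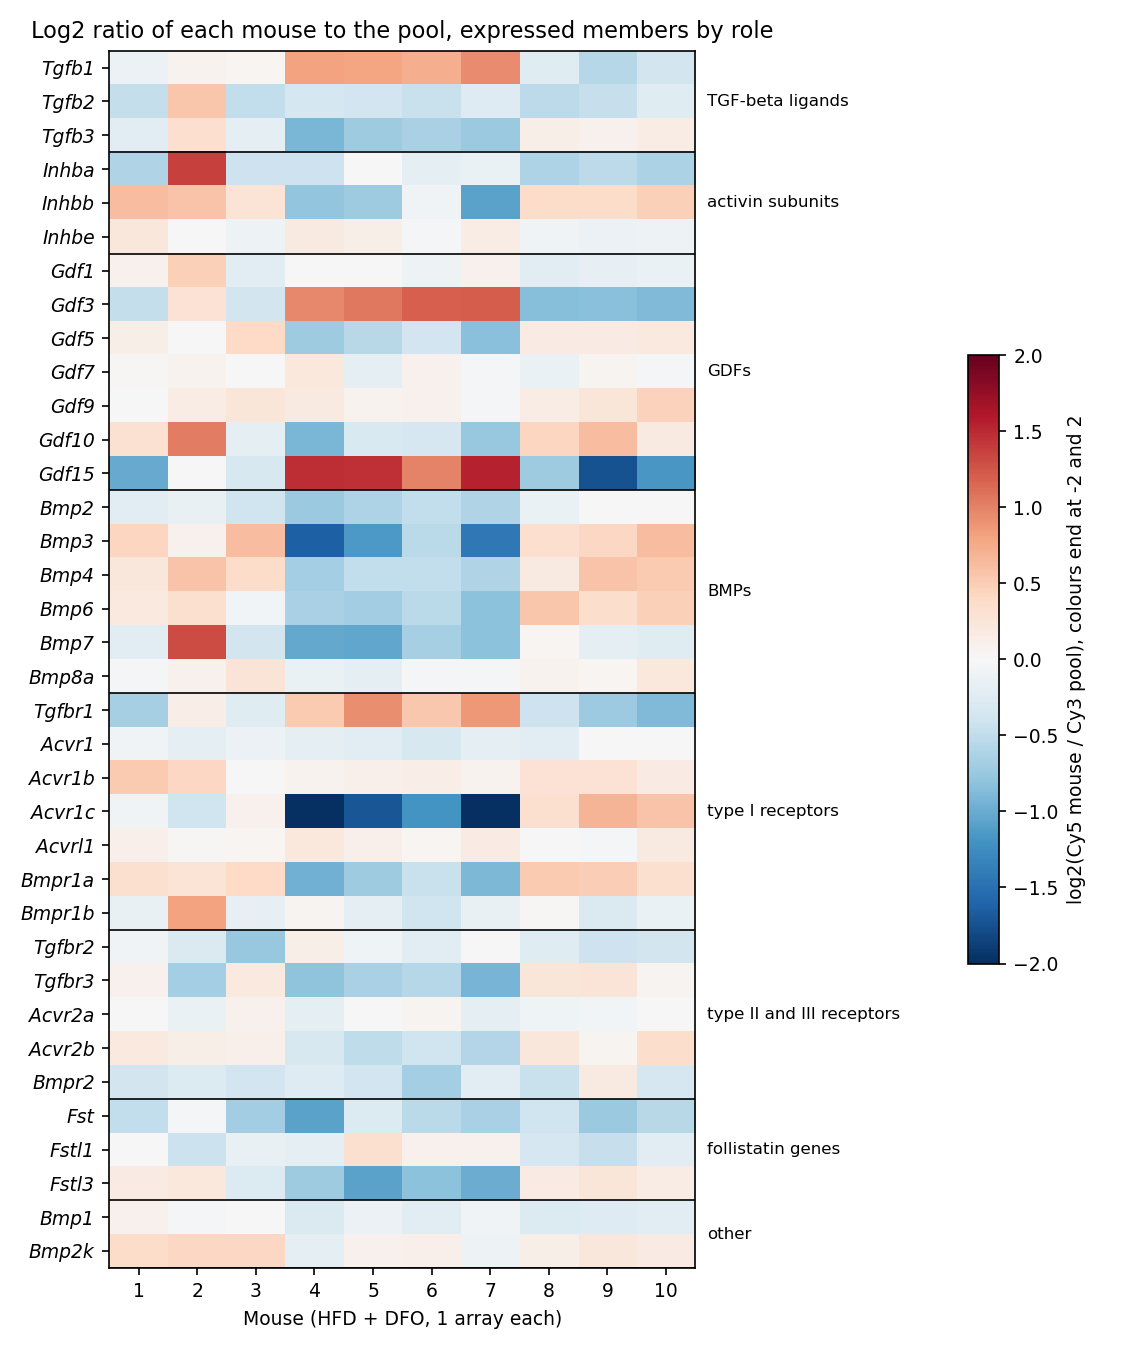
Log2 ratio to the pool in each of the 10 mice (columns) for the 36 expressed genes (rows, brightest probe each), ordered by role; red is above and blue below the pool. *Acvr1c* in mice 4 and 7, at -2.11 and -2.34, lies beyond the end of the colour scale, and mice 4 to 7 hold both the highest *Gdf15* and the lowest *Acvr1c* values.

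**Figure D2:**
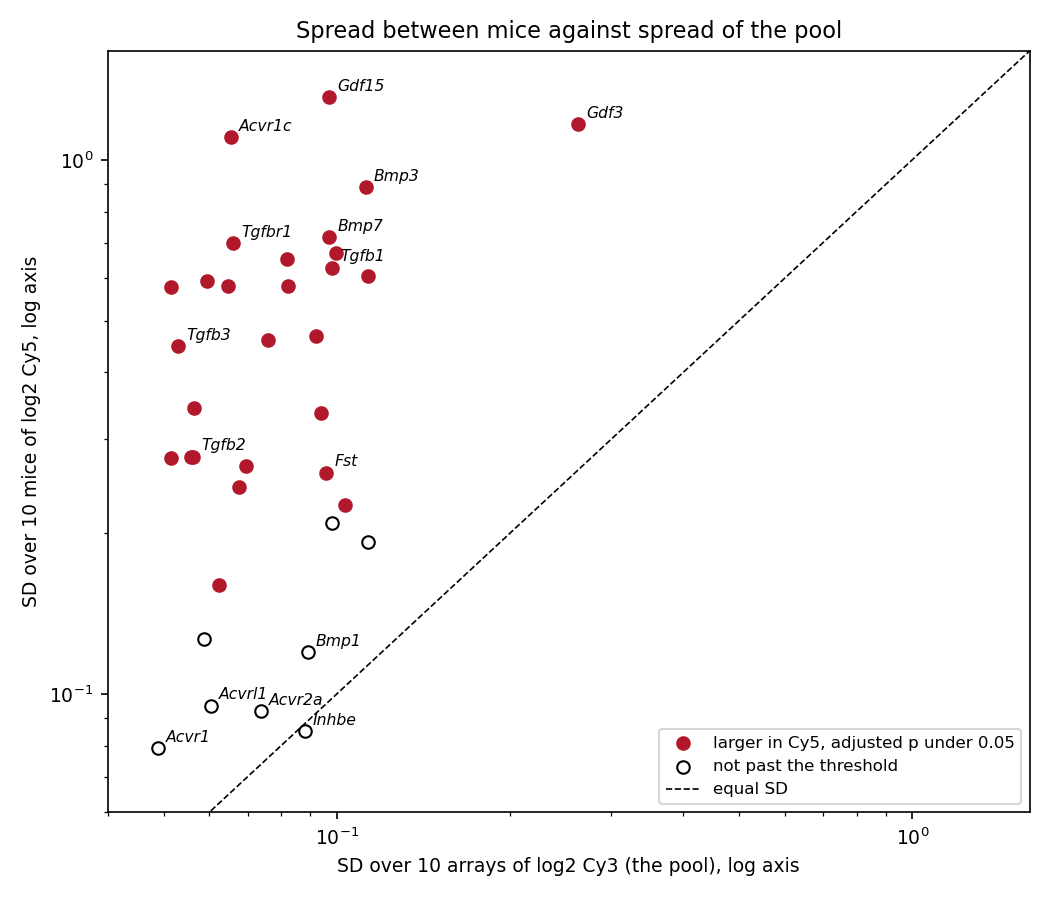
SD of log2 Cy5 over the 10 mice against SD of log2 Cy3, the pool, over the same 10 arrays for the 35 genes tested, on log axes; filled points passed the test. All but *Inhbe* lie above the line of equal SD, from *Acvr1* at 0.079 to *Gdf15* at 1.31 on the vertical axis.

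Of the TGF-β ligands, *Tgfb1* was highest and *Tgfb3* lowest in mice 4 to 7, and *Tgfb2* was high in mouse 2. The probes of *Tgfb1* and *Tgfb2* lie in the sequence that codes for the mature, receptor-binding part of the ligand, and are shown (mm9, 5′ to 3′) because these related genes were high in different mice while their probes share sequence. Capitals mark the bases that are identical when the probes are aligned without gaps at their best shift of 19 bases, which are 28 of 41 aligned bases, or 68.3%.
Tgfb1, chr7:26489877-26489936, plus strand: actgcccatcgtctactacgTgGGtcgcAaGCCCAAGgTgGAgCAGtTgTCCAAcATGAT
Tgfb2, chr1:188449333-188449392, minus strand: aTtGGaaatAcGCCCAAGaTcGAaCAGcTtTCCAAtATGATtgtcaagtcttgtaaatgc

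The *Tgfb1* log2 ratio in mice 1 to 10 was -0.12, 0.066, 0.045, 0.81, 0.79, 0.73, 0.95, -0.24, -0.57 and -0.36. The 4 highest were those of mice 4 to 7, and the highest and lowest mouse differed 2.87-fold. For *Tgfb1* the SD of log2 Cy5 was 0.63 and that of log2 Cy3 0.098 (adjusted p = 1.06e-05). Over the other 6 mice the call was lost (adjusted p = 0.098). Mice 7 and 8, on 1 slide, read 0.95 and -0.24. The *Tgfb3* log2 ratio in mice 1 to 10 was -0.20, 0.34, -0.20, -0.91, -0.72, -0.65, -0.74, 0.11, 0.083 and 0.14. Here the order was turned, with mice 4 to 7 lowest and mouse 2 highest. *Tgfb3* varied more in Cy5, with an SD of log2 Cy5 of 0.45 against 0.053 for log2 Cy3 (adjusted p = 2.15e-05). TGF-β3 has the same receptors as TGF-β1. The *Tgfb2* log2 ratio in mice 1 to 10 was -0.47, 0.56, -0.49, -0.35, -0.38, -0.45, -0.26, -0.53, -0.46 and -0.25. Mouse 2 alone was above 0 and the other 9 lay close together. For *Tgfb2* the SD of log2 Cy5 was 0.28 and that of log2 Cy3 0.056 (adjusted p = 0.000105). A second *Tgfb2* probe also had its highest value in mouse 2, at 0.40, with the other mice between -0.34 and 0.083.

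Activins are dimers of inhibin beta subunits, which fat tissue makes from *Inhba* and *Inhbb*. The *Inhba* probe also lies in the coding part of the mature subunit and is given because its value in mouse 2 stood farther above the next mouse, in log2 units, than that of any other member.
Inhba, chr13:16118634-16118693, plus strand: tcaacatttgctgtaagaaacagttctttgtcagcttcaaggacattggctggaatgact
The *Inhba* log2 ratio in mice 1 to 10 was -0.60, 1.37, -0.41, -0.41, 0.0081, -0.18, -0.13, -0.62, -0.52 and -0.63. Mouse 2 was far above the others, and the next highest, mouse 5, was near 0. *Inhba* varied more in Cy5, with an SD of log2 Cy5 of 0.67 against 0.10 for log2 Cy3 (adjusted p = 8.1e-06). The *Inhbb* log2 ratio in mice 1 to 10 was 0.61, 0.57, 0.28, -0.80, -0.71, -0.063, -1.07, 0.37, 0.36 and 0.48. The 4 lowest were mice 4 to 7, of which mouse 6 was close to the others. For *Inhbb* the SD of log2 Cy5 was 0.59 and that of log2 Cy3 0.060 (adjusted p = 2.43e-06). Over the other 6 mice the *Inhbb* call was lost (adjusted p = 0.0714). The pair of subunit genes was thus high and low in different mice. *Inhbe*, the subunit of activin E known mainly from liver, ranged only from -0.12 to 0.23 and its Cy5 and Cy3 SDs were 0.085 and 0.088 (adjusted p = 0.942).

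Follistatin (*Fst*) and follistatin-like 3 (*Fstl3*) bind activins and keep them from their receptors, and *Fstl1* codes for a secreted glycoprotein of the same fold. The *Fstl3* log2 ratio in mice 1 to 10 was 0.16, 0.21, -0.27, -0.71, -1.07, -0.82, -0.99, 0.16, 0.24 and 0.15. All of mice 4 to 7 were lower than every other mouse. *Fstl3* varied more in Cy5, with an SD of log2 Cy5 of 0.58 against 0.065 for log2 Cy3 (adjusted p = 4.65e-06). The *Fst* log2 ratio in mice 1 to 10 was -0.49, -0.024, -0.69, -1.07, -0.28, -0.54, -0.65, -0.39, -0.74 and -0.56. Mouse 4 was the lowest and mouse 2 the highest, with the other 8 between -0.74 and -0.28. For *Fst* the SD of log2 Cy5 was 0.26 and that of log2 Cy3 0.096 (adjusted p = 0.0204). The *Fst* call was lost without mouse 4 (adjusted p = 0.191), without mice 4 to 7 (0.45) and with slide as a block (0.0674). The *Fstl1* log2 ratio in mice 1 to 10 was -0.0070, -0.43, -0.15, -0.19, 0.32, 0.094, 0.086, -0.34, -0.46 and -0.23. Mice 5, 6 and 7 were the highest while mouse 4 lay among the rest. *Fstl1* varied more in Cy5, with an SD of log2 Cy5 of 0.28 against 0.056 for log2 Cy3 (adjusted p = 0.000204). Without mice 4 to 7 neither *Fstl3* (adjusted p = 0.0583) nor *Fstl1* (0.101) passed.

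Among the growth differentiation factors, *Gdf15* had the largest spread of all members, and *Gdf3* moved with it. *Gdf15* encodes a stress-induced hormone that acts on the hindbrain receptor GFRAL to lower food intake. The *Gdf15* log2 ratio in mice 1 to 10 was -1.01, -0.0086, -0.31, 1.48, 1.46, 1.00, 1.55, -0.72, -1.75 and -1.17. Mice 4 to 7 lay between 1.00 and 1.55, and no other mouse exceeded 0. For *Gdf15* the SD of log2 Cy5 was 1.31 and that of log2 Cy3 0.097 (adjusted p = 1.58e-07). The highest and lowest mouse differed 9.82-fold, and mice 3 and 4, on 1 slide, read -0.31 and 1.48. Its spread was larger than that of the pool also over the other 6 mice, with an SD of log2 Cy5 of 0.62 (adjusted p = 0.0160).

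*Gdf3* encodes a ligand that binds ALK7 and is known in fat tissue from adipose macrophages. Its brighter probe, in the coding sequence of the mature ligand, is given because the second probe of the gene, at chr6:122555421-122555480, gave a smaller spread.
Gdf3, chr6:122556340-122556399, minus strand: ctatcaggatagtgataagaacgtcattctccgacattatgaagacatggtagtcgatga
The *Gdf3* log2 ratio in mice 1 to 10 was -0.48, 0.29, -0.37, 0.96, 1.05, 1.20, 1.22, -0.85, -0.84 and -0.89. Mice 4 to 7 were highest, mouse 2 was next, and mice 8, 9 and 10 were lowest. *Gdf3* varied more in Cy5, with an SD of log2 Cy5 of 1.17 against 0.26 for log2 Cy3 (adjusted p = 1.18e-07). The pool channel of this probe also varied more than that of any other member tested. The second probe kept mice 5, 6, 7 and 4 at the top, from 0.21 to 0.55, but its SD of the log2 ratio was 0.26 against 0.91. The *Gdf10* log2 ratio in mice 1 to 10 was 0.31, 1.03, -0.18, -0.92, -0.31, -0.33, -0.76, 0.43, 0.61 and 0.18. *Gdf10*, also called BMP3b, was thus highest in mouse 2 and lowest in mice 4 and 7. For *Gdf10* the SD of log2 Cy5 was 0.65 and that of log2 Cy3 0.082 (adjusted p = 1.36e-05). *Gdf5*, a ligand of the BMP branch, had its 4 lowest values in mice 4 to 7, between -0.84 and -0.38, with the others between 0.0041 and 0.39, and did not pass over those 6 (adjusted p = 0.599). *Gdf9*, an oocyte factor, ranged from -0.045 to 0.47 and was not past the threshold (adjusted p = 0.0682). *Gdf7* ranged from -0.20 to 0.21.

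**Figure D3:**
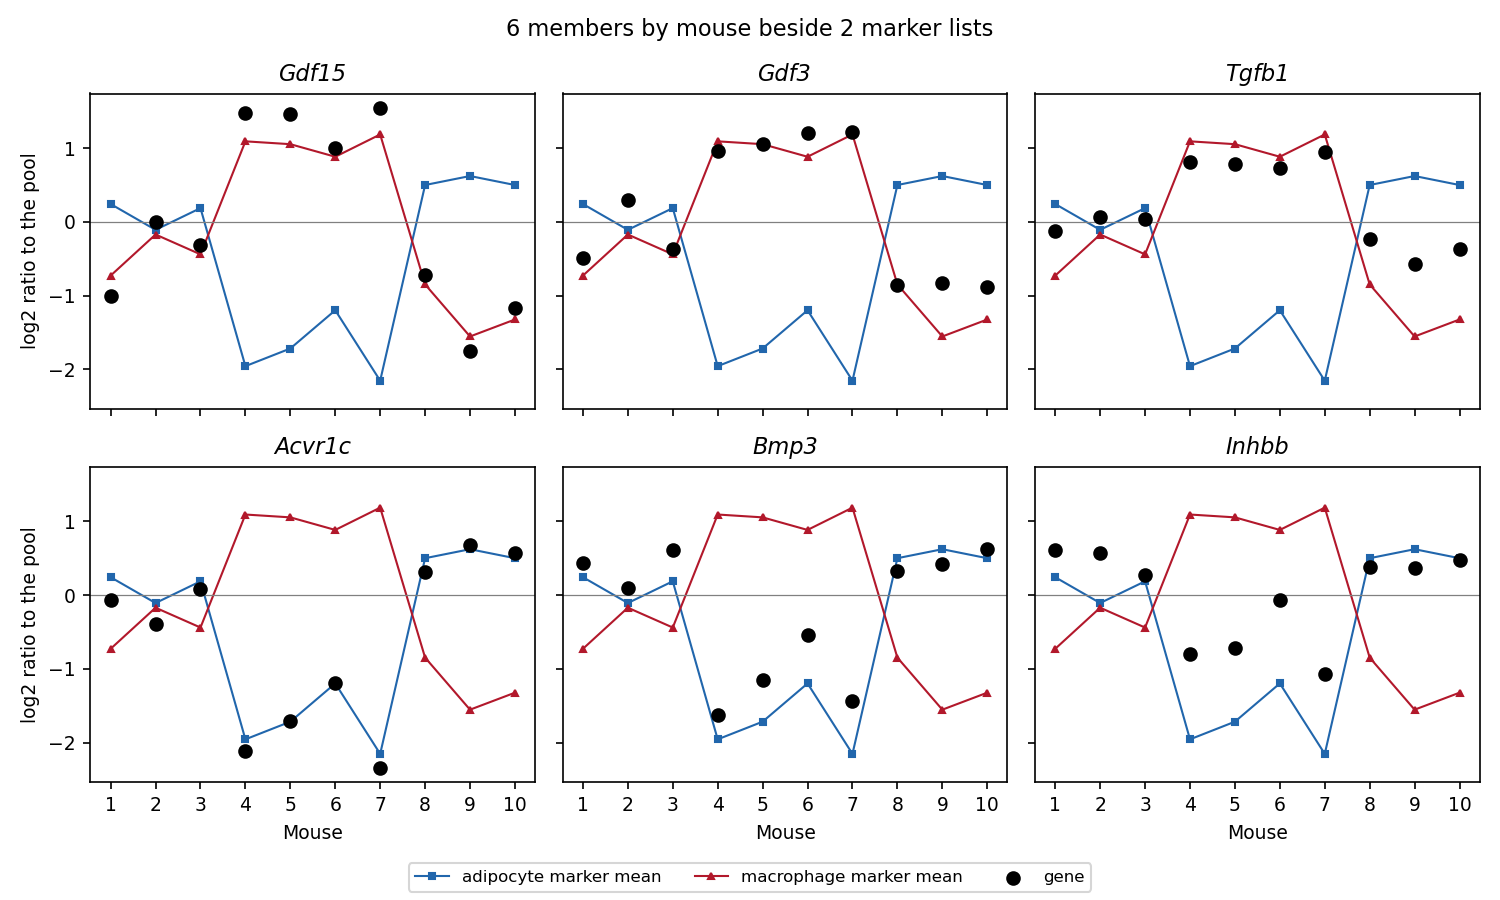
Log2 ratio to the pool in each mouse (black points) for 6 members, beside the mean log2 ratio of 9 adipocyte markers (blue squares) and 9 macrophage markers (red triangles). *Gdf15*, *Gdf3* and *Tgfb1* are highest and *Acvr1c*, *Bmp3* and *Inhbb* lowest in mice 4 to 7, where the macrophage mean is 0.88 to 1.18 and the adipocyte mean -2.15 to -1.20; the part of cell content in these values was not tested.

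Of the 6 BMP ligands expressed, *Bmp2*, *Bmp3*, *Bmp4*, *Bmp6* and *Bmp7* passed the variance test, and all 5 had their 4 lowest values in mice 4 to 7. Of all expressed probes 21.3% had that pattern. Its share among probes that passed the variance test was not computed. *Bmp3* encodes a BMP that opposes the others. The *Bmp3* log2 ratio in mice 1 to 10 was 0.44, 0.089, 0.62, -1.63, -1.15, -0.54, -1.43, 0.33, 0.42 and 0.62. Mice 4, 5 and 7 lay between -1.63 and -1.15, and mouse 6 was nearer the rest. *Bmp3* varied more in Cy5, with an SD of log2 Cy5 of 0.89 against 0.11 for log2 Cy3 (adjusted p = 3.16e-05). The *Bmp4* log2 ratio in mice 1 to 10 was 0.22, 0.57, 0.37, -0.67, -0.49, -0.49, -0.60, 0.18, 0.57 and 0.53. The values of mice 4 to 7 did not overlap those of the other mice, and mice 2 and 9 were the highest. For *Bmp4* the SD of log2 Cy5 was 0.61 and that of log2 Cy3 0.11 (adjusted p = 1.89e-05). The *Bmp6* log2 ratio in mice 1 to 10 was 0.19, 0.33, -0.052, -0.64, -0.70, -0.54, -0.82, 0.56, 0.35 and 0.48. *Bmp6*, known for control of hepatic hepcidin and so of iron, was highest in mouse 8. *Bmp6* varied more in Cy5, with an SD of log2 Cy5 of 0.58 against 0.082 for log2 Cy3 (adjusted p = 2.23e-05). The *Bmp2* log2 ratio in mice 1 to 10 was -0.23, -0.15, -0.40, -0.74, -0.61, -0.49, -0.60, -0.13, -0.013 and -0.0051. The range was narrower than for the others, and no mouse was above 0. For *Bmp2* the SD of log2 Cy5 was 0.27 and that of log2 Cy3 0.069 (adjusted p = 0.00261). The *Bmp7* log2 ratio in mice 1 to 10 was -0.23, 1.31, -0.37, -1.02, -1.04, -0.66, -0.82, 0.031, -0.19 and -0.25. Mouse 2 stood 1.28 above the next mouse. *Bmp7* varied more in Cy5, with an SD of log2 Cy5 of 0.72 against 0.097 for log2 Cy3 (adjusted p = 2.75e-05). *Bmp8a*, whose sequence is close to that of its neighbour *Bmp8b* so that its signal is uncertain, lay between -0.18 and 0.26 (adjusted p = 0.0879). Without mice 4 to 7, *Bmp6* and *Bmp7* still passed (adjusted p = 0.0399 and 0.0303), while *Bmp3* (0.0570), *Bmp4* (0.276) and *Bmp2* (0.125) did not. The *Bmp2* call was also lost with slide as a block (0.168).

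Of the type I receptors, *Acvr1c* was lowest and *Tgfbr1* highest in mice 4 to 7. *Acvr1c*, encoding ALK7, was the member with the lowest values of all. The *Acvr1c* log2 ratio in mice 1 to 10 was -0.068, -0.40, 0.080, -2.11, -1.71, -1.20, -2.34, 0.31, 0.68 and 0.57. Mice 4 to 7 lay between -2.34 and -1.20 and the others between -0.40 and 0.68. For *Acvr1c* the SD of log2 Cy5 was 1.10 and that of log2 Cy3 0.065 (adjusted p = 2.74e-07). The highest and lowest mouse differed 8.09-fold, mice 7 and 8 on 1 slide read -2.34 and 0.31, and the second probe gave values from -2.07 in mouse 7 to 0.54 in mouse 9. Over the other 6 mice the SD of log2 Cy5 was 0.38, still larger than that of the pool (adjusted p = 0.0394). The *Tgfbr1* log2 ratio in mice 1 to 10 was -0.67, 0.14, -0.25, 0.52, 0.92, 0.54, 0.87, -0.41, -0.73 and -0.89. *Tgfbr1*, the TGF-β type I receptor ALK5, was highest in mice 4 to 7, with mouse 2 next. *Tgfbr1* varied more in Cy5, with an SD of log2 Cy5 of 0.70 against 0.066 for log2 Cy3 (adjusted p = 4.75e-06). Its second probe had the same 4 mice highest, between 0.38 and 0.70. The *Bmpr1a* log2 ratio in mice 1 to 10 was 0.33, 0.27, 0.40, -0.96, -0.70, -0.44, -0.89, 0.53, 0.49 and 0.32. *Bmpr1a* encodes the BMP receptor ALK3, and its 6 higher values lay within 0.27 and 0.53. For *Bmpr1a* the SD of log2 Cy5 was 0.58 and that of log2 Cy3 0.052 (adjusted p = 1.62e-06). Over those 6 mice it no longer differed from the pool (SD 0.10 and 0.055, adjusted p = 0.388).

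Of the other type I receptors, *Acvr1b* and *Bmpr1b* passed the variance test and *Acvr1* and *Acvrl1* did not. The *Acvr1* log2 ratio in mice 1 to 10 was -0.071, -0.18, -0.12, -0.20, -0.23, -0.33, -0.19, -0.23, -4.9e-05 and -0.011. *Acvr1* encodes the BMP receptor ALK2. The SD of *Acvr1* was 0.079 in log2 Cy5 and 0.049 in log2 Cy3, not past the threshold (adjusted p = 0.229). The *Acvr1b* log2 ratio in mice 1 to 10 was 0.52, 0.41, -0.0088, 0.075, 0.11, 0.13, 0.069, 0.29, 0.29 and 0.16. *Acvr1b* encodes ALK4, the main activin type I receptor, and mice 1 and 2 were highest. For *Acvr1b* the SD of log2 Cy5 was 0.16 and that of log2 Cy3 0.062 (adjusted p = 0.0278). This call was lost without mouse 1 (adjusted p = 0.135), without mice 4 to 7 (0.173), with median centring of each array (0.272), with slide as a block (0.0899) and with no filter on dim probes (0.0547). The *Acvrl1* log2 ratio in mice 1 to 10 was 0.098, 0.023, 0.042, 0.21, 0.094, 0.033, 0.16, -0.013, -0.039 and 0.18. *Acvrl1* encodes ALK1, known from endothelium. The SD of *Acvrl1* was 0.095 in log2 Cy5 and 0.060 in log2 Cy3, not past the threshold (adjusted p = 0.214). *Acvrl1* thus gave no call although 5 of 6 endothelial markers varied more in Cy5. *Bmpr1b*, encoding ALK6, was above background on 5 arrays and had 1 high value, in mouse 2 (adjusted p = 0.000131).

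Of the type II receptors, *Acvr2b* followed the split of the mice and *Acvr2a* did not pass the test. *Tgfbr2* and *Bmpr2* varied, but the values of mice 4 to 7 overlapped those of the others. The *Tgfbr2* log2 ratio in mice 1 to 10 was -0.070, -0.28, -0.76, 0.12, -0.089, -0.22, -0.011, -0.24, -0.41 and -0.37. Mouse 3 was the lowest and mouse 4, on the same slide, the highest. Mice 4 to 7 lay between -0.22 and 0.12 and the others between -0.76 and -0.070. For *Tgfbr2* the SD of log2 Cy5 was 0.28 and that of log2 Cy3 0.052 (adjusted p = 7.62e-05). A second *Tgfbr2* probe also passed the variance test (adjusted p = 0.0176), but had mouse 6 lowest, at -0.50, and mouse 1 highest, at 0.11. The *Acvr2a* log2 ratio in mice 1 to 10 was 0.0071, -0.14, 0.083, -0.18, -0.00075, 0.059, -0.20, -0.078, -0.060 and 0.011. *Acvr2a* showed no order that followed the split. The SD of *Acvr2a* was 0.093 in log2 Cy5 and 0.074 in log2 Cy3, not past the threshold (adjusted p = 0.572). The *Acvr2b* log2 ratio in mice 1 to 10 was 0.19, 0.11, 0.10, -0.32, -0.51, -0.40, -0.58, 0.22, 0.053 and 0.35. *Acvr2b* had its 4 lowest values in mice 4 to 7. For *Acvr2b* the SD of log2 Cy5 was 0.34 and that of log2 Cy3 0.094 (adjusted p = 0.00407). With median centring of each array (adjusted p = 0.0659) and without mice 4 to 7 (0.411) the *Acvr2b* call was lost. The *Bmpr2* log2 ratio in mice 1 to 10 was -0.36, -0.28, -0.38, -0.26, -0.38, -0.68, -0.21, -0.45, 0.18 and -0.33. Only mouse 9 was above 0. *Bmpr2* varied more in Cy5, with an SD of log2 Cy5 of 0.24 against 0.068 for log2 Cy3 (adjusted p = 0.00156). The *Bmpr2* call was lost without mouse 9 (adjusted p = 0.076) and with median centring of each array (0.114). *Tgfbr3* encodes betaglycan, a coreceptor that presents TGF-β2 and inhibin. The *Tgfbr3* log2 ratio in mice 1 to 10 was 0.081, -0.68, 0.20, -0.81, -0.64, -0.57, -0.94, 0.24, 0.26 and 0.054. Mouse 2 was low here together with mice 4 to 7. For *Tgfbr3* the SD of log2 Cy5 was 0.47 and that of log2 Cy3 0.092 (adjusted p = 0.000488). With median centring of each array the *Tgfbr3* call was lost (adjusted p = 0.0578).

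For 5 of 49 member probes (10.2%) 1 mouse lay apart from the other 9 (its gap to the nearest of them, over the range, was above Dixon's critical value), against 5.17% of all expressed probes, and in all 5 it was mouse 2 that was high: *Tgfb2*, *Inhba*, *Bmpr1b*, *Gdf1* and *Bmp7*. The 5.17% counts any mouse, high or low, and the share of all probes with mouse 2 high and apart was not computed. *Gdf1* was 0.47 in mouse 2 and -0.22 to 0.088 elsewhere, but its other expressed probe read -0.019 in mouse 2, and the gene is known to share a transcript with *Cers1*. *Bmpr1b* was 0.80 in mouse 2 and -0.40 to 0.050 elsewhere. Mouse 2 had the highest value for 10 of the 36 expressed member genes, against 10.9% of all expressed probes. Of the sperm and epididymis markers, *Prm1*, *Prm2* and *Tnp1* were expressed and *Lcn5* was not. In the same mouse the mean of these 3 was -1.02 against -2.79 to -2.10 in the others. Their summed Cy5 signal was 839 against 246 to 359. Of the mesothelial markers, the keratin *Krt8* read 1.91 in mouse 2 against -2.25 to -0.23 elsewhere. *Krt18* and *Krt19*, at 1.85 and 0.65, were also highest there. *Msln*, *Upk3b*, *Wt1* and *Lrrn4* of the same list were low in mouse 2, at -0.96, -0.98, -0.49 and -0.98. The part of these marker signals in the member values of mouse 2 was not tested. Without mouse 2, *Inhba* and *Bmp7* still passed the variance test, while *Tgfb2* (adjusted p = 0.059), *Bmpr1b* (0.058) and *Gdf1* (0.895) did not. The *Gdf1* call, at an adjusted p of 0.0456 over all 10 mice, was also lost with any 1 of mice 5 to 10 left out (0.0634 to 0.0728), without mice 4 to 7 (0.234), with slide as a block (0.265), with median centring (0.0572), with no filter on dim probes (0.0871) and by an ordinary F test of 2 variances (0.051).

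**Figure D4:**
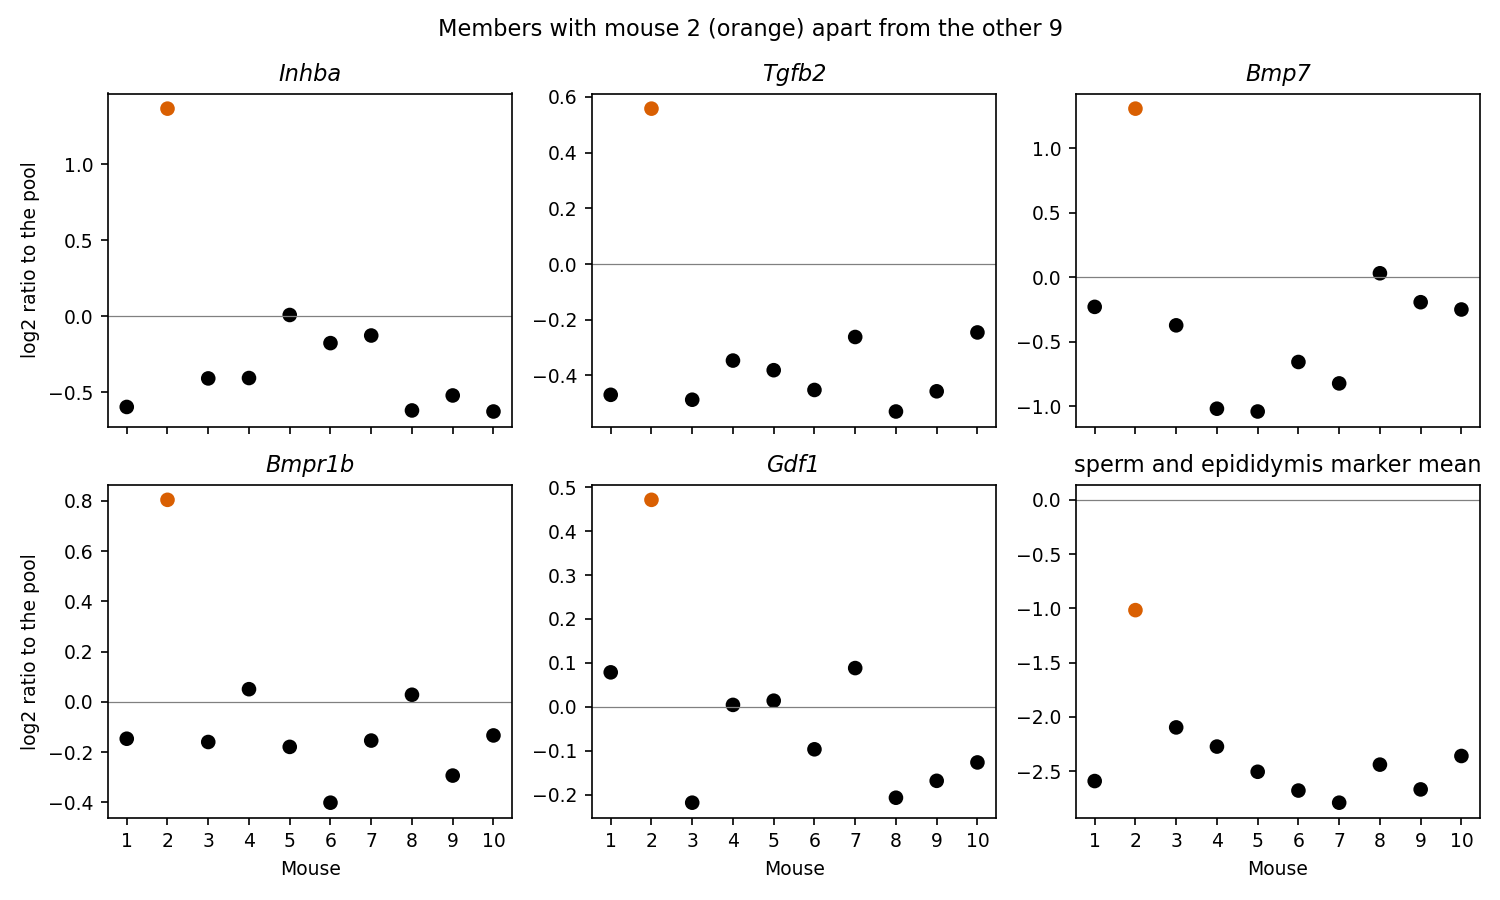
Log2 ratio to the pool in each mouse for the 5 members in which mouse 2 (orange) lay apart from the other 9 mice (black). The last panel is the mean of *Prm1*, *Prm2* and *Tnp1*, the 3 expressed sperm and epididymis markers. Each panel has its own vertical scale. Mouse 2 reads 1.37 for *Inhba*, 1.31 for *Bmp7*, 0.80 for *Bmpr1b*, 0.56 for *Tgfb2* and 0.47 for *Gdf1*.

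DFO removes the iron that oxygen-sensing prolyl hydroxylases need, so promoters of members were searched for the core of the hypoxia response element, ACGTG, and for 2 other motifs, on both strands of the 250 bases before each RefSeq start (GRCm38.p6). Entries were found for 25 of the 36 expressed genes, 31 starts in all. ACGTG lay in 22.6% of these (7 of 31) and in 16.6% of all 32851 promoters. The SMAD motif CAGAC lay in 51.6% (16 of 31) and 42.2%. The ATF4 and C/EBP motif TGATGCAA lay in 3.23% and 0.791%, which among members is 1 promoter of 31, that of *Inhbe*. A promoter of *Gdf15* and that of *Fstl3*, whose values went opposite ways in mice 4 to 7, both held ACGTG and CAGAC, which are in capitals (either strand; the pair of ACGTG matches in *Gdf15* overlap).
Gdf15, chr8:70632096-70632345, minus strand: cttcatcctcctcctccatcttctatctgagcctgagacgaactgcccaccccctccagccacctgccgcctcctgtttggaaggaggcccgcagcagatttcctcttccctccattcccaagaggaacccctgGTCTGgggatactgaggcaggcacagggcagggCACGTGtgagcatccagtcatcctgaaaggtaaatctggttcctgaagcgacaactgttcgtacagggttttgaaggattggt
Fstl3, chr10:79777024-79777273, plus strand: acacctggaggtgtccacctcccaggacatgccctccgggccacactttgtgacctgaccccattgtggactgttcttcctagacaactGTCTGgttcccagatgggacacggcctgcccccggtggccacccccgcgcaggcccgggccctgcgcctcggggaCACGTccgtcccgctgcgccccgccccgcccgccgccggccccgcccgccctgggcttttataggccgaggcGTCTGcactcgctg
The promoter of the other *Gdf15* start (chr8:70632457-70632706, minus strand) held CAGAC but not ACGTG. These are matches of letters and no measure of binding.

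The rest of the pathway was described by lists, whose counts can be read against the 59.8% of all probes. Of the SMADs, 7 of 8 were expressed and 5 of 7 varied more in Cy5, led by the inhibitory *Smad6* and *Smad7*. *Smad6* lay between -1.16 and -0.56 in mice 4 to 7 and between -0.22 and 0.29 elsewhere (adjusted p = 4.55e-05), and *Smad7* between -0.50 and -0.21 and between -0.013 and 0.43 (adjusted p = 0.00735). Of the genes for latency and activation, 8 of 8 expressed varied more in Cy5. *Thbs1*, the thrombospondin that releases active TGF-β1, ran from -2.20 in mouse 4 to 0.81 in mouse 10 (adjusted p = 2.53e-07). The latent TGF-β binding protein *Ltbp4* ran from -1.19 to 0.30 (adjusted p = 4.57e-08). Both had mice 4 to 7 lowest, as did *Ltbp1* and *Ltbp3*, which is the reverse of *Tgfb1*. *Itgav* instead went with *Tgfb1*, at 0.59 to 0.78 in mice 4 to 7 and -0.45 to 0.16 elsewhere (adjusted p = 3.11e-05). *Ltbp2*, *Lrrc32* and *Furin* followed neither order.

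Of the secreted antagonists, 4 of 10 expressed passed. The 2 with the largest SD ran in opposite ways: *Chrdl1*, a BMP antagonist, was -2.72 to -1.87 in mice 4 to 7 and -0.31 to 0.58 elsewhere (adjusted p = 1.52e-07), and *Bmper*, a BMP-binding modulator, was 0.58 to 1.26 and -0.88 to 0.18 (adjusted p = 2.35e-07). Coreceptors passed in 4 of 5, led by *Tdgf1* (SD of the log2 ratio 0.39) and *Rgma* (0.28). The pool channel of *Tdgf1* also varied widely, with SDs of 0.84 in log2 Cy5 and 0.49 in log2 Cy3. So did that of *Rgmb*, also called, with SDs of 0.36 and 0.27. Of the other family members, *Mstn* and *Amh* were not expressed, *Nodal* was not past the threshold, and *Amhr2*, the type II receptor of anti-Müllerian hormone, ran from -2.20 in mouse 7 to 0.69 in mouse 9 (adjusted p = 1.18e-07). Intracellular regulators passed in 6 of 11, led by the SMAD corepressor *Tgif1*, at 0.63 to 0.82 in mice 4 to 7 and -0.93 to 0.15 elsewhere (adjusted p = 3.39e-06), and the ubiquitin ligase *Nedd4l* (adjusted p = 0.0175).

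All 14 genes of the list of known TGF-β and BMP targets varied more in Cy5, but not in 1 direction. *Postn*, a matrix protein, was 1.11 to 1.48 in mice 4 to 7 and -0.78 to -0.57 elsewhere (adjusted p = 5.12e-08), and *Acta2*, smooth muscle actin, was -1.60 to -1.13 and -0.18 to 0.83 (adjusted p = 3.16e-08). *Acta2* is also a gene of mural cells, whose 4 markers had their lowest mean in mice 4 to 7, at -1.13 to -0.64 against -0.019 to 0.49. No list had a gene that varied more in the pool.

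Against the pool, the mean log2 ratio over the 10 mice had a median of -0.024 over the 49 expressed member probes and of 0.0030 over all expressed probes, and 22 of 49 were above 0. Among the brightest probes of the genes, the lowest means were those of *Acvr1c*, -0.62 ± 1.13 (SD), and *Fst*, -0.54 ± 0.28, and the highest those of *Tgfb1*, 0.21 ± 0.56, and *Acvr1b*, 0.20 ± 0.17. With each array centred on its median instead of by loess, the median over members became 0.27 and that over all probes 0.32, so the sign of these means depends on the centring. No member differed between the 5 slides after adjustment (limma, 0 of 49 and 0 of 27711 probes; 2 members and 4.1% of all probes had an unadjusted p under 0.05).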

How the data were processed

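RNA of 10 mice (1000 ng each) was hybridized on 10 arrays, 2 on each of 5 slides. The authors deposited scanner files of Agilent Feature Extraction 10.7.3.1, which hold the intensity of each spot and of its background in Cy5 and Cy3, without normalization, flags of the software, and its log10 ratio. They also deposited a table of 30733 normalized values, found from the values to be log2 and used for differences between mice as an alternative. Its scale and centring are not stated. From the intensities, mean signals were corrected by normexp (offset 50), normalized by loess within and Aquantile between arrays (limma 3.58.1, R 4.3.3), and spots of 1 probe were averaged after control and outlier spots were left out. Median Cy5 was 53 to 79 over a background of 32 to 37, without saturated spots. Precision is limited by the number of arrays. Symbols are those of the array.

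A gene was represented by its brightest expressed probe. Variances of log2 Cy5 and log2 Cy3 were compared by the Pitman-Morgan test, and slides by limma's F test. On simulated data the variance test called 1 of 100 probes with a Cy5 SD 2 times that of Cy3. With 4 times it called 25 of 100. The simulation held 24844 of 25044 probes at equal SD, unlike the data, where 59.8% of probes were called. A member not called can thus still vary more in Cy5. The slide test called 100 of 100 probes shifted by 1 log2 on 1 slide. This simulation gave every probe the same SD, the median over the probes tested, and no split of the mice. In the data the median SD of the log2 ratio was 0.27 over member probes and 0.18 over all expressed probes. A slide difference in a member with a larger SD can thus be missed. A mouse apart was found by Dixon's ratio. Sequences came from the scanner files (mm9) and RefSeq promoters (GRCm38.p6, Python 3.11.15). Values in every mouse are given for the 15 expressed genes with the largest SD and for a fixed list, 27 in all, and the 2 genes with the largest SD of each pathway list are named. The members and lists were chosen with earlier results of these data known. Alternatives changed the background correction, normalization, filter, slide block and test, or left out mice. Whether mice came from separate cages or litters is not given in the sources used here.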

Additional observations from a re-analysis of the deposited data

Results flagged for a closer look

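In 5 members and in 7 values of the marker and pathway lists, 1 of the 10 mice lay farther from its nearest neighbour than Dixon's critical share of the range allows. Chance flags about 1 in 20 such sets, and 162 were examined. The gap over the range was 0.739 for *Tgfb2*, 0.681 for *Inhba*, 0.625 for *Bmpr1b*, 0.556 for *Gdf1* and 0.544 for *Bmp7*, each with mouse 2 highest. Mouse 2 was also the high mouse for the protamines *Prm2* (0.771) and *Prm1* (0.571), the mean of the sperm and epididymis markers (0.609), the keratin *Krt8* (0.512) and the SMAD corepressor *Skil* (0.51), and it was the low mouse for fibronectin, *Fn1* (0.478). For the lymphocyte marker *Cd3e* (0.47) mouse 3 was the high one. Whether the values of mouse 2 have the same source was not tested.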

How the results depend on the processing

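The count of member probes with larger variance in Cy5, 34 of 45 (59.8% of all probes), was 28 to 34 under 6 alternatives (26.1% to 64% of all probes), of which the changed filters gave 31 of 40 and 32 of 67, and 32 to 34 with each mouse left out (53.9% to 57.5%), but 17 with no normalization between arrays and 17 without mice 4, 5, 6 and 7, an alternative added after seeing the data. The cause of the first was not tested; the second rests on fewer mice. Of the 27 genes called, 13 lost the call without these 4 mice, 12 without normalization between arrays, 5 with median centring of each array, 4 with slide as a block and 6 with 1 or another mouse left out. The number of probes with 1 mouse apart, 5, was 10 with median centring, where mouse 3 accounted for 5 of them, 3 with a signal above background required on all arrays, 3 in the deposited normalized values and 8 over the 6 other mice. *Inhba* and *Tgfb2* in mouse 2 were among them under all 7 alternatives. The median log2 ratio over members, -0.024 over all 10 mice, was -0.072 to -0.027 with each mouse left out and became 0.27 with median centring. The log2 of Cy5 SD over Cy3 SD changed sign for members not called over all 10 mice: with median centring *Acvr1* (-0.11), *Acvrl1* (-0.11), *Bmp1* (-0.030) and *Inhbe* (0.27), with no normalization between arrays *Acvr1* (-0.044), *Acvr2a* (-0.23), *Bmp1* (-0.13) and *Gdf9* (-0.044), and for *Inhbe* with the slide block (0.076), with each mouse left out (-0.34 to 0.17, above 0 without mouse 3, 4, 5, 8 or 9) and without mice 4 to 7 (0.15). No paired analysis was possible because there was 1 group. Dim probes such as *Bmpr1b* and *Gdf7* lie close to the background, which limits their values.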

Other observations

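Probes of 1 gene did not always order the mice alike, among them those of *Gdf1*, *Acvr2a*, *Bmp1* and *Bmp2k*, of which the last pair are no ligands or receptors. *Bmp1* encodes the procollagen C-proteinase. Its brightest probe (chr14:70874370-70874429, mm9) lay between -0.29 and 0.086 and was not past the threshold (adjusted p = 0.469, Pitman-Morgan test), while another (chr14:70886415-70886474) was highest in mice 4, 5, 6 and 7, at 0.38 to 0.66, and lay between -0.11 and 0.30 in the other mice (adjusted p = 4.52e-05). *Bmp2k* encodes a kinase induced by BMP2. Its brightest probe (chr5:97519810-97519869) was lowest in mice 4 to 7, at -0.18 to 0.097, and another (chr5:97498486-97498545) was highest there, at 0.18 to 0.43 against -0.23 to 0.060. Which transcripts these probes read is not given in the sources used here.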
